A study of Mus musculus with 12 samples.

Results

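The genes described here are the splicing factors and hnRNPs of the mouse intestinal epithelium, chosen by name with earlier results of these data known. They are the serine and arginine rich (SR) proteins *Srsf1* to *Srsf12* and the heterogeneous nuclear ribonucleoproteins whose symbols begin with *Hnrnp*. The subunits of SF3a and SF3b are also included. Leaving out pseudogenes, 40 of the 34245 genes in the count table carry such a name, 11 SR proteins, 20 hnRNPs and 9 SF3 subunits. RNA was sequenced from 12 libraries, 3 each of young ISC, aged ISC, young AE and aged AE. ISC are crypt cells of the small intestine sorted as high for GFP and negative for DAPI from male C57BL/6 mice that carry Lgr5-GFP, a knock-in reporter in the stem cell gene *Lgr5*, and AE are adult enterocytes of the villus of these Lgr5-GFP mice, sorted as high for Epcam and negative for CD31, CD45 and DAPI. All mice of both ages carry the reporter, no treatment is named, the young averaged 8 months and the aged 27 months, and 3 mice were used per age. In most sample titles the library code and the wording disagree on the group. Each library was therefore given the group that its own column name spells, and is named below by that group and its order in the table. The cell types could be checked against markers, whereas the ages rest on the column names alone.

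In the nucleus, introns are removed by the spliceosome, and the proteins described here decide where it assembles. SR proteins bind short enhancer sequences in exons and bring in the first spliceosomal particles, many hnRNPs coat the nascent transcript and often act against SR proteins at nearby sites, and SF3a and SF3b are the parts of the U2 particle that hold the branch point of the intron. Several SR protein and hnRNP genes regulate their own level by splicing in an exon with an early stop codon, which sends the transcript to nonsense-mediated decay. Crypt stem cells divide continuously, whereas villus enterocytes have left the cell cycle and are shed within days of leaving the crypt.

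Libraries held between 11893817 and 26796461 counts, apart from the deepest, young AE library 3, with 110794420. Counts were scaled to counts-per-million (CPM) with the TMM factors of edgeR. The sort labels were checked against markers: *Lgr5* was at 79.6 to 146 CPM in the 6 ISC libraries and at 0.551 to 4.71 CPM in the 6 AE libraries, and *Vil1*, which encodes the brush border protein villin, at 417 to 752 CPM in ISC and 4268 to 6158 CPM in AE. In AE against ISC, all 14 stem cell and all 18 proliferation markers were called lower and all 20 enterocyte markers higher, at both ages. Goblet markers were also higher in AE (7 of 8 at each age, with *Spink4* called lower in the aged), as were enteroendocrine markers (8 of 8 at each age). Paneth markers were lower (6 of 7 tested in the young, 7 of 7 in the aged). Of tuft markers, 3 of 8 were called higher at each age and the other 5 were not called. Of all genes, 27.7% in the young and 30.0% in the aged were called higher. The few detectable markers of T cells and intraepithelial lymphocytes were called higher for 1 of 7 in the young and 6 of 7 in the aged. For myeloid, B and plasma cell, and stroma and endothelium markers, 0 to 2 genes were called in any direction, and their summed levels stayed at or below 24.3 CPM in every library. The goblet markers summed to 28145 to 57063 CPM in AE and 1400 to 2249 CPM in ISC, and the part of secretory cells in the results was not tested.

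Among the AE libraries, the second young one held the most crypt markers. Its 18 proliferation markers summed to 848 CPM, against 348 and 186 CPM in the other young AE libraries and 246 to 277 CPM in aged AE, and its stem cell markers to 799 CPM against 346 and 182 CPM. Of 39 splicing factors and hnRNPs, 28 were highest in that library among the 3 young AE libraries, whereas 24 were lowest in the deepest one. The count of calls in the young is also given without that second library. So are the young fold changes of *Hnrnpa1*, *Sf3b3*, *Hnrnpll* and *Hnrnph2*, and some values by age. In bulk libraries, fewer cells of a type and less RNA per cell cannot be told apart.

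Of the 40 genes, 39 had more than 3 counts in every library. The exception was *Srsf12*, with 0 counts in all 6 ISC libraries and in 3 AE libraries, and with 12, 1 and 2 counts in the third young, the first aged and the third aged AE library. It passed the filter in the young comparison only through the 12 counts of the deepest library, so no fold change is given for it, and 3 counts correspond to 0.036 to 0.327 CPM depending on the library. It is counted among the genes tested where the filter let it pass.

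Levels of different genes were compared as CPM per kilobase of merged exons. In young ISC the highest levels were those of *Hnrnpab*, with 287 ± 30.4 CPM per kb (SD, n = 3), *Hnrnpa2b1* with 212 ± 5.85, *Hnrnpa0* with 153 ± 9.15 and *Srsf2* with 147 ± 16.6 CPM per kb. *Hnrnpa0* and *Srsf2* lay within each other's spread, and *Srsf1* followed at 72.8 ± 6.44 CPM per kb. The lowest detected gene per kb was *Hnrnpr*, at 3.82 ± 0.128 CPM per kb over merged exons of 22199 bases. In CPM without length it was not the lowest, at a mean of 84.8 in young ISC against 26.9 for *Sf3b4*. In aged AE the highest means were those of *Hnrnpab* (108 ± 1.13 CPM per kb), *Srsf2* (97.9 ± 11.9) and *Srsf5* (92.6 ± 24.7), and these genes could not be separated from each other by their spread. By its mean, *Srsf5* stood at rank 12 in ISC and 4 in AE of the young, and at rank 5 in ISC and 3 in AE of the aged, while *Hnrnpa1*, among the most studied splicing repressors, was at 63.2 ± 0.514 CPM per kb in ISC and 11.7 ± 4.90 CPM per kb in AE of the young, and at 70.1 ± 8.18 and 7.05 ± 1.36 CPM per kb in the aged.

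These levels carry a limit from the counting. The authors kept uniquely mapped reads of 50 bases, and 19 of the 40 genes share more than 5% of the 50-base windows of their longest transcript with transcripts of other genes, some of them pseudogenes and some not. The share was 67.3% for *Hnrnpf*, 65.3% for *Srsf4*, 51.2% for *Sf3b4* and 46.4% for *Hnrnpa1*. The genes that share windows were 18 pseudogenes and 1 other gene for *Hnrnpa1*, but 0 pseudogenes and 1 other gene for *Srsf4*. Sharing was counted by gene name and not by place, so a gene that overlaps on the genome also counts. The levels of genes that share windows with other places are therefore uncertain, whereas *Srsf6*, *Sf3b1*, *Hnrnpa0*, *Hnrnpu*, *Srsf9* and *Srsf11* share no such window.

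AE and ISC of the same age were compared to see how the splicing machinery differs between the dividing crypt base and the villus. As a group, the 40 genes held 1.33 ± 0.103% of all counts in young ISC (SD, n = 3) and 1.36 ± 0.096% in aged ISC, against 0.411 ± 0.0541% in AE of the young and 0.364 ± 0.0271% in AE of the aged. The lowest ISC library (1.21%) lay above the highest AE library (0.463%). As summed CPM, scaled with the TMM factors, the hnRNPs held 6732 ± 286 CPM in ISC and 3148 ± 403 CPM in AE of the young. The SR proteins held 2241 ± 256 and 1263 ± 77.6 CPM, and the SF3 subunits 1297 ± 69.0 and 757 ± 41.2 CPM.

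In young mice, 33 of the 40 genes were called lower in AE than in ISC (FDR under 0.05, edgeR quasi-likelihood test) and 0 higher, where 25.4% of all 16681 genes tested were called lower and 27.7% higher. Their median log2 fold change was -1.06, or -1.10 without *Srsf12*, against 0.15 over all genes. In aged mice, 34 of 39 tested genes were called lower and 0 higher, where 34.1% of all 15855 genes were called lower and 30.0% higher, and the median was -1.32 against -0.13 over all genes. By family, 8 of 11 SR proteins, 17 of 20 hnRNPs and 8 of 9 SF3 subunits fell in young AE, and 8 of 10, 18 of 20 and 8 of 9 in aged AE. The libraries of AE lay below all libraries of ISC of the same age for 35 of 40 genes in the young, where this held for 30.6% of all genes, and for 35 of 39 in the aged, where it held for 36.5%. They lay above for 0 genes at both ages, where 32.3% and 33.4% of all genes did.

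**Figure D1:**
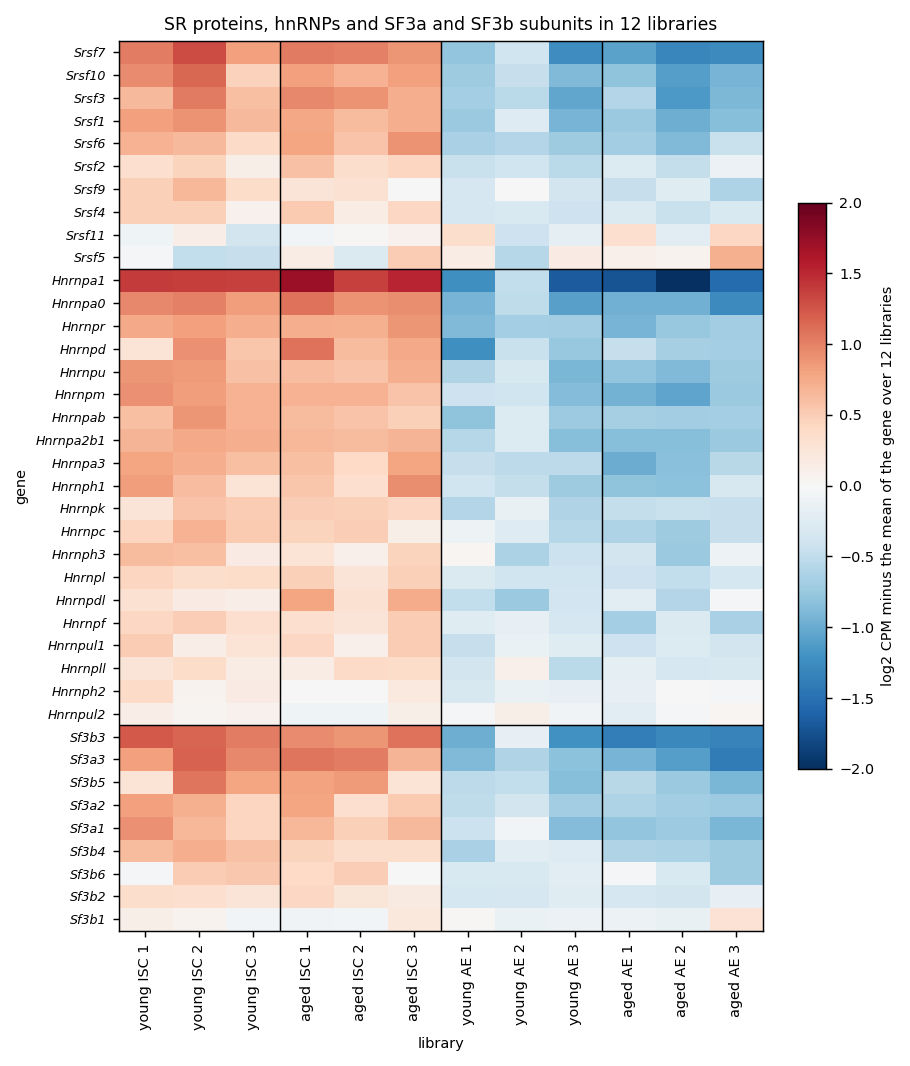
Heat map of log2 CPM of 39 genes (rows, grouped as SR proteins, hnRNPs and SF3a and SF3b subunits, ordered by the young difference) in 12 libraries (columns, 3 per group), each row centred on its mean over the libraries and coloured from -2 (blue) to 2 (red). Most rows are red in the 6 ISC libraries and blue in the 6 AE libraries, the second young AE library is paler than its neighbours, and *Srsf5*, *Srsf11*, *Hnrnpul2* and *Sf3b1* show no such step.

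Of the SR proteins, *Srsf7*, a shuttling factor that also takes part in mRNA export, fell furthest. It was at 213, 259 and 185 CPM in ISC of the young and at 60.8, 79.1 and 44.4 CPM in their AE, and at 214, 210.0 and 192 CPM in aged ISC and 50.03, 42.5 and 43.4 CPM in aged AE. The groups of libraries did not overlap at either age, and the difference was 3.57-fold in the young (log2 fold change -1.83 ± 0.25, SE, FDR = 0.000629) and 4.77-fold in the aged (-2.25 ± 0.16, FDR = 1.71e-06). Of each pair of log2 fold changes below, the first is of the young and the second of the aged. *Srsf3*, another small shuttling SR protein, fell (-1.51 ± 0.20 and -1.79 ± 0.18). *Srsf10*, which turns into a general repressor of splicing when it loses its phosphates, fell (-1.56 ± 0.22 and -1.79 ± 0.15), and *Srsf1*, the founding member of the family, likewise (-1.41 ± 0.22 and -1.64 ± 0.16).

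*Srsf6* was at 340.2, 331 and 275 CPM in young ISC and 134, 140.2 and 129 CPM in young AE, so that every ISC library held at least 275 CPM and no young AE library more than 140.2 CPM. Its log2 fold change was -1.23 ± 0.17 in the young (FDR = 0.00063) and -1.50 ± 0.18 in the aged (FDR = 5.26e-05). Smaller falls were called for *Srsf2*, *Srsf4* and *Srsf9*, from -0.71 to -0.77 in the young and from -0.69 to -0.82 in the aged.

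A pair of SR proteins did not pass the test in either direction. *Srsf5*, an enhancer-binding factor first described as a growth response transcript of liver, was at 287, 209 and 213 CPM in young ISC and at 325, 197 and 329.6 CPM in young AE, and at 325, 242 and 417 CPM in aged ISC and 316, 309 and 483 CPM in aged AE. These groups overlapped at both ages, and the log2 fold changes of 0.26 ± 0.25 (FDR = 0.39) and 0.10 ± 0.25 (FDR = 0.747) did not pass the test. Its spread between libraries was wide, and some libraries that share a code were low or high together. The second young libraries of ISC and AE were the lowest of their groups and the third aged libraries the highest of theirs. The third young libraries went apart, with ISC near the lowest of its group (213 CPM) and AE the highest of its group (329.6 CPM). *Srsf11*, a less typical SR-related protein, gave 0.04 ± 0.24 in the young and 0.11 ± 0.19 in the aged, with AE libraries from 135 to 241 CPM around ISC libraries from 141 to 197 CPM.

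The hnRNPs included the steepest fall of all 40 genes. *Hnrnpa1*, which binds silencer sequences and shifts the choice of splice sites, was at 201, 199 and 198 CPM in young ISC and at 32.7, 54.2 and 24.1 CPM in young AE. Aged libraries held 248, 197 and 218 CPM in ISC and 22.9, 17.6 and 26.2 CPM in AE. Every AE library lay far below every ISC library, by 5.41-fold in the young (-2.43 ± 0.29, FDR = 0.000406) and 10.5-fold in the aged (-3.39 ± 0.19, FDR = 7.12e-07). Without the second young AE library the young value was -2.92. Its close relatives had smaller falls, *Hnrnpa0* (-1.76 ± 0.20 and -2.10 ± 0.18), *Hnrnpa2b1* (-1.27 ± 0.23 and -1.54 ± 0.19), and *Hnrnpa3* (-1.21 ± 0.16 and -1.46 ± 0.18). Counts of *Hnrnpa1* and *Hnrnpa3* are of the uncertain kind described above, while *Hnrnpa0* shares no window with another gene.

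*Hnrnpr*, an RNA-binding protein close to the product of *Syncrip*, had the lowest FDR of the 40 genes in the young, and was at 83.9, 87.9 and 82.4 CPM in young ISC and 26.99, 31.0 and 30.8 CPM in young AE, and at 82.7, 81.6 and 91.9 CPM in aged ISC and 26.0, 29.4 and 30.6 CPM in aged AE. All ISC libraries clustered near one level and all AE libraries near another, 2.87-fold lower in the young (FDR = 0.000191) and 3.13-fold lower in the aged (FDR = 7.70e-06). *Hnrnpu*, a nuclear scaffold protein, fell (-1.38 ± 0.22 and -1.51 ± 0.17). *Hnrnpm* fell (-1.36 ± 0.20 and -1.63 ± 0.17), and *Hnrnpd*, better known for binding AU-rich elements of unstable mRNAs, likewise (-1.38 ± 0.25 and -1.50 ± 0.18).

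*Hnrnpab*, the most abundant gene per length, fell (-1.32 ± 0.22 and -1.32 ± 0.17), and *Hnrnph1*, which binds runs of guanosine, likewise (-1.12 ± 0.20 and -1.33 ± 0.21). Smaller falls were called at both ages for *Hnrnpk*, *Hnrnpc*, *Hnrnpl*, *Hnrnpdl*, *Hnrnpf*, *Hnrnph3* and *Hnrnpul1*, from -0.89 to -0.59 in the young and from -1.03 to -0.74 in the aged. *Hnrnpll*, a regulator of alternative splicing in lymphocytes, was called in the aged (-0.66 ± 0.14, FDR = 0.00275) but missed the threshold in the young (-0.51 ± 0.19, FDR = 0.0548). It was called in the young with the library code as a replicate block (-0.53, FDR = 0.0191) and without the second young AE library (-0.82, FDR = 0.00556), as well as with upper-quartile factors, with no scaling factors and with all 4 groups in the fit.

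*Hnrnph2*, the X-linked paralog of *Hnrnph1*, did not pass at either age, with -0.42 ± 0.16 (FDR = 0.0597) and -0.21 ± 0.14 (FDR = 0.223), although its AE libraries lay below its ISC libraries at both ages. In the young it was called in 4 of 15 alternatives, without the second young AE library (-0.55, FDR = 0.0467), with upper-quartile factors (-0.54), with no scaling factors (-1.12) and with all 4 groups in the fit (-0.41). *Hnrnpul2*, a relative of *Hnrnpu* linked to the DNA damage response, was at 364, 344 and 351 CPM in young ISC and 322, 360.1 and 316 CPM in young AE. Its groups overlapped, and the log2 fold changes were -0.09 ± 0.16 in the young and -0.12 ± 0.17 in the aged (FDR = 0.673 and 0.546).

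Of the SF3 subunits, *Sf3b3*, a large propeller-shaped protein that also belongs to a histone acetyltransferase complex, was at 241, 232 and 209.9 CPM in young ISC and 52.6, 92.6 and 44.7 CPM in young AE. Aged libraries held 199, 189.6 and 219 CPM in ISC and 39.6, 42.5 and 41.1 CPM in AE. The groups did not overlap, the second young AE library was the highest of AE, and the falls were 3.60-fold in the young (-1.85 ± 0.28, FDR = 0.000997) and 5.19-fold in the aged (-2.38 ± 0.15, FDR = 1.19e-06). Without that library the young value was -2.33. *Sf3a3*, a zinc finger subunit of SF3a, fell 3.39-fold in the young (-1.76 ± 0.17, FDR = 0.000207) and 4.38-fold in the aged (-2.13 ± 0.18, FDR = 6.06e-06). *Sf3a1* fell (-1.10 ± 0.23 and -1.48 ± 0.15), and *Sf3a2* (-1.18 ± 0.17 and -1.32 ± 0.16).

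*Sf3b1*, the scaffold that clamps the branch point and is often mutated in myeloid neoplasms, was at 339, 329 and 302 CPM in young ISC and 319, 286 and 289.9 CPM in young AE, and at 299, 304 and 363 CPM in aged ISC and 289, 285 and 385 CPM in aged AE. The groups overlapped at both ages, and the log2 fold changes were -0.12 ± 0.16 (FDR = 0.559) and -0.08 ± 0.19 (FDR = 0.71). The other SF3b subunits fell by between 0.62 (*Sf3b2*) and 1.85 (*Sf3b3*) in the young, with *Sf3b5* at -1.37, *Sf3b4* at -1.02 and *Sf3b6*, which touches the branch point adenosine, at -0.64.

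**Figure D2:**
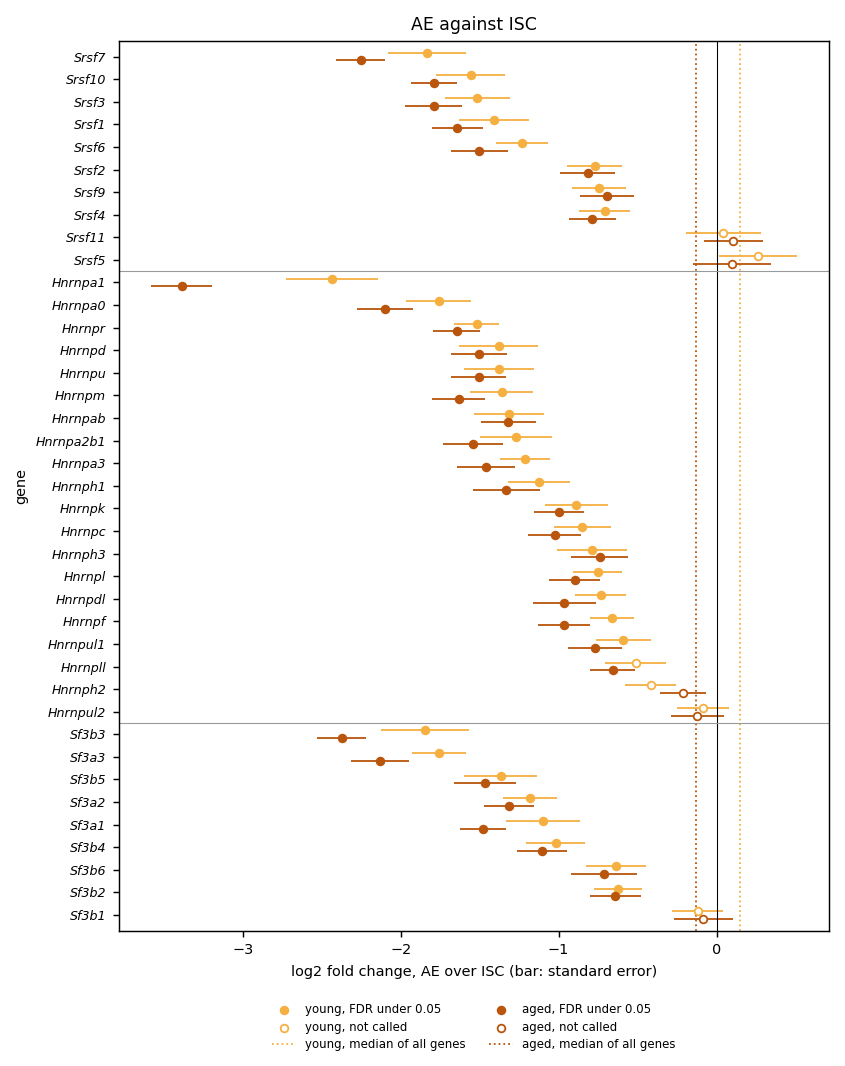
Log2 fold change of AE over ISC for 39 genes in young (light) and aged (dark) mice, with bars for the standard error (n = 3 libraries per group), filled points for FDR under 0.05, open points for genes not called, and dotted lines at the median of all genes tested (0.15 in the young, -0.13 in the aged). Nearly all points lie left of the dotted lines, from *Hnrnpa1* at -2.43 and -3.39 to *Srsf5*, *Srsf11*, *Hnrnpul2* and *Sf3b1* near 0.

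How far below 0 a gene lies depends on the scaling of the libraries. The TMM factors were 0.721 to 0.823 in AE and 1.26 to 1.36 in ISC. The 10 most abundant genes held 8.5% to 13.1% of counts in AE, against 4.17% to 6.06% in ISC. Their part in the difference of the factors was not tested. With totals alone, the median of all genes moved from 0.15 to -0.55 in the young and from -0.13 to -0.91 in the aged. The median of the splicing factors and hnRNPs lay 1.21 below that of all genes in the young, and 1.19 below it in the aged, both with TMM factors and with totals alone. On that scale 38 of 40 genes were called lower in the young and 39 of 39 in the aged, while 42.8% and 53.4% of all genes were called lower, and *Srsf5* and *Srsf11* turned from above 0 to below 0 at both ages. In the aged, *Sf3b1* also changed its sign, to 0.0046, with DESeq2 or RLE scaling.

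Ratios of counts between genes of the same library involve no scaling. The pairs were not planned beforehand, and other pairs that were computed are not shown. *Sf3b3* per *Sf3b1*, *Srsf7* per *Srsf5* and *Srsf10* per *Srsf11* each set a gene that fell against a gene not called. A lower ratio of such a pair in AE restates the fold changes above and is not separate support. For each 100 counts of *Sf3b1*, the libraries held 71.0, 70.5 and 69.4 counts of *Sf3b3* in ISC of the young and 66.6, 62.4 and 60.4 in ISC of the aged, but 16.5, 32.4 and 15.4 in young AE and 13.7, 14.9 and 10.7 in aged AE. The ratio was lower in each aged ISC library than in each young one, but neither gene was called by age in ISC. The CPM of each gene overlapped between young and aged ISC, and how often other pairs part by age is not given. By its mean, the ratio was 3.28 times lower in young AE and 4.82 times lower in aged AE than in ISC of the same age. *Sf3b2* per 100 *Sf3b1* moved much less, from 91.8 to 96.3 in young ISC and 59.8 to 71.2 in young AE. With 3 against 3 libraries, an exact two-sided permutation test cannot go below p = 0.10, so these ratios are given without one.

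*Srsf7* stood at 74.2 to 124 counts per 100 counts of *Srsf5* in young ISC and at 13.5 to 40.1 in young AE, and at 46.1 to 87.0 in aged ISC and 8.98 to 15.8 in aged AE. Against *Srsf3*, which fell by a similar amount, it moved only from 92.1 to 102 in young ISC to 68.7 to 86.7 in young AE. *Srsf10* per 100 *Srsf11* was 38.0 to 43.8 in young ISC and 10.3 to 20.7 in young AE. *Hnrnpa1* per 100 *Hnrnpa2b1*, a pair whose products bind similar motifs, was 13.9 to 14.8 in young ISC and 15.0 to 18.5 in aged ISC, and 5.18 to 7.76 in young AE and 3.75 to 5.19 in aged AE. For each of these pairs, the AE libraries lay below the ISC libraries of the same age. That did not hold for every pair computed. In the young, *Sf3b6* per 100 *Sf3b1* was 13.2 to 22.2 in ISC and 11.8 to 13.6 in AE. *Hnrnpd* per 100 *Hnrnpdl* was 108 to 184 in young ISC and 65.9 to 135 in young AE.

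**Figure D3:**
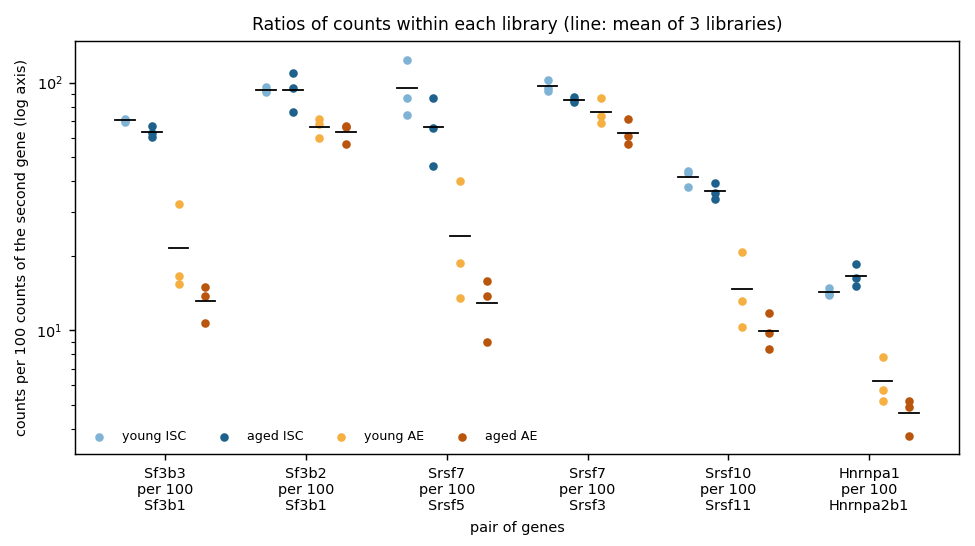
Counts of the first gene per 100 counts of the second gene of a pair in the same library (vertical log axis) for 6 pairs, with 1 point per library, coloured by group, and a line at the mean of 3 libraries. *Sf3b3* per 100 *Sf3b1* sits at 60.4 to 71.0 in ISC and at 10.7 to 32.4 in AE, whereas *Sf3b2* per 100 *Sf3b1* and *Srsf7* per 100 *Srsf3* move little.

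In both ages, 33 of the 39 genes tested were called lower, where 4108 of all 15581 genes tested in both were. Since the young and the aged comparison share no library, their fold changes can be set side by side: across 39 genes the log2 fold changes correlated with Pearson r = 0.981 and Spearman rho = 0.974, and across all 15581 genes tested in both with 0.904 and 0.939. These are correlations across genes, which are not independent replicates, and each point shares its libraries with all the others. The fold change was the more negative in the aged for 34 of the 39 genes, while the median of all genes also moved, from 0.15 to -0.13. Without the second young AE library, the median of the 40 genes in the young was -1.21 and 35 were called lower. In that setting the median of all genes was 0.09, and 26.1% of them were called lower and 25.6% higher.

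Proliferation markers moved with these genes. Their median log2 fold change in AE against ISC was -2.99 in the young and -4.41 in the aged, and their summed level was 2423 to 2972 CPM in ISC and 186 to 848 CPM in AE. The part of cell division in the fall of the splicing factors was not tested.

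Other genes of the splicing pathway were taken from 9 lists that hold 160 genes, 156 of them tested. In young AE 102 were called lower and 9 higher, and in aged AE 109 and 11, with medians of -0.73 and -0.89. Of all genes tested, 25.4% were called lower and 27.7% higher in the young, and 34.1% and 30.0% in the aged, with medians of 0.15 and -0.13. The core ring proteins of the snRNPs fell most: 14 of 15 Sm and Lsm genes were lower at both ages with medians of -1.87 and -2.42, among them *Lsm2* (-1.96 ± 0.17 and -2.42 ± 0.17), *Lsm6* (-1.57 ± 0.18 in the young) and *Snrpf* (-4.20 ± 0.23 in the aged). The remaining gene, *Snrpn*, an imprinted copy of the SmB gene best known from neurons, was higher at both ages (1.34 and 1.25) and is named after its value was seen.

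In the list of U1 and U2 snRNP and U2AF genes 12 of 15 were lower at both ages, led by *Snrpa1* (-1.81 ± 0.17 and -2.48 ± 0.22), *U2af1* (-1.63 ± 0.22 in the young) and *Snrpa* (-1.55 ± 0.17 in the aged). Of the U4/U6.U5 tri-snRNP 13 of 16 were lower at both ages, with *Prpf31* at -2.02 ± 0.24 and -2.59 ± 0.20 and *Eftud2*, the GTPase of the U5 particle, at -1.59 ± 0.21 and -1.81 ± 0.14. Of the Prp19 complex and spliceosomal helicases 13 of 22 were lower in the young and 15 in the aged, with *Prpf19* at -1.90 ± 0.21 and -2.55 ± 0.19 and *Bcas2* at -1.51 ± 0.16 and -1.81 ± 0.16, and 1 was higher at both ages, *Syf2* (0.63 and 0.77).

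The minor spliceosome, which removes the rare U12-type introns, was mixed: 2 of 12 genes were lower and 3 higher in the young, and 4 and 3 in the aged, with medians of -0.18 and -0.14, so that its share called lower was not above that of all genes. *Zrsr2*, which recognises the 3′ splice site of these introns, fell at both ages (-0.87 ± 0.22 in the young), whereas its paralog *Zrsr1* (1.70 ± 0.38 and 1.85 ± 0.26), *Scnm1* (0.76 and 0.65) and *Armc7* (0.76 and 0.63) rose, the last 2 named after their values were seen. Kinases and importers of SR proteins were split as well, with 4 of 11 lower and 1 higher in the young and 5 and 2 in the aged. Those higher, named after their values were seen, were *Dyrk1a* (0.49 and 0.43) and, in the aged, *Clk3* (0.68). *Srpk2*, which phosphorylates SR proteins in the cytoplasm, fell (-1.09 ± 0.25 and -2.01 ± 0.22), and *Tnpo3*, their importer, likewise (-0.73 ± 0.15 and -0.98 ± 0.14).

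Of SR-related coactivators and the exon junction complex, 12 of 18 were lower in the young and 13 in the aged, with *Son* higher at both ages (0.55 and 0.74), and *Alyref*, an mRNA export adaptor, was at -1.89 ± 0.24 and -2.29 ± 0.16 and *Magohb* at -1.87 ± 0.25 and -2.46 ± 0.24. Of 37 other splicing regulators tested, 29 were lower at both ages and 2 and 3 higher. *Rbm17* (-1.31 ± 0.15) was among those of lowest P in the young, and *Rbm38* (-2.72 ± 0.18) and *Syncrip* (-1.97 ± 0.14) were those of lowest P in the aged. The regulators that were higher at both ages, named after their values were seen, were *Rbm47* (1.24 and 1.53), an RNA-binding protein known from intestine and liver, and *Ptbp3* (0.86 and 0.98), with *Mbnl2* (0.53) in the aged alone past the threshold. Of nonsense-mediated decay genes 3 of 10 were lower in the young and 4 in the aged, with medians of -0.19 and -0.32, a share called near that of all genes. *Upf3b* fell (-1.12 ± 0.17 and -1.19 ± 0.22) and *Smg9* (-0.64 ± 0.16 and -0.72 ± 0.14).

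**Figure D4:**
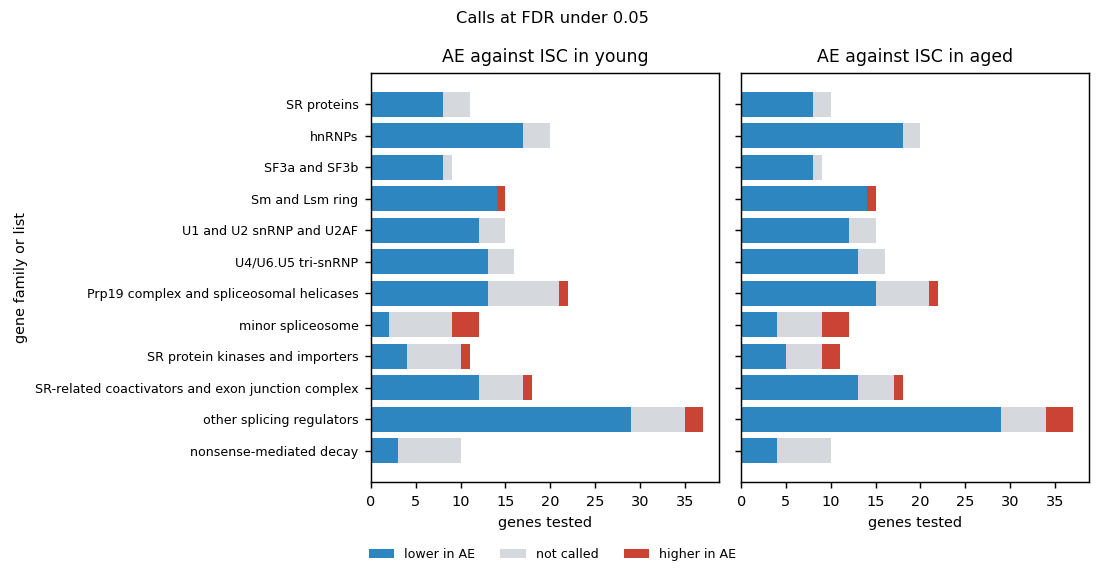
Number of genes called lower in AE (blue), not called (grey) and called higher in AE (red) at FDR under 0.05, for the 3 families and 9 lists of other splicing genes, in young (left) and aged (right) mice. Blue fills most of the bars for the families, the Sm and Lsm ring (14 of 15) and the U4/U6.U5 tri-snRNP (13 of 16), and less of those for the minor spliceosome (2 of 12 in the young) and nonsense-mediated decay (3 of 10).

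Aged and young libraries of the same cell type were compared to ask whether splicing factor levels change with age. In ISC, 0 of 39 genes were called in edgeR or in DESeq2, and 0% of all 15552 genes were called in edgeR and 0.373% in DESeq2. At an unadjusted P under 0.05 there was 1 gene, where 4.47% of all genes were. The median log2 fold change was -0.04 against 0.01 over all genes, the range was -0.31 to 0.48, and the median standard error 0.15. In AE, 0 of 40 genes were called in edgeR or in DESeq2, where 0% and 0.123% of all genes were, and 2 were at an unadjusted P under 0.05, where 4.97% of all genes were. The median was -0.08 against -0.04 over all genes, the range without *Srsf12* -0.71 to 0.40, and the median standard error 0.18.

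The gene of lowest P in ISC was *Hnrnpdl*, a relative of *Hnrnpd* that regulates its own splicing through a poison exon. It was at 198, 180.1 and 176 CPM in young ISC and 277, 197 and 269 CPM in aged ISC, with a log2 fold change of 0.43 ± 0.17 (FDR = 1.00 by edgeR). The first and the third aged libraries stood above all young ones and the second just below the highest of them. *Srsf5* followed with 0.48 ± 0.22, again with overlapping groups. In AE both genes pointed the same way without passing, *Hnrnpdl* at 0.28 ± 0.18 and *Srsf5* at 0.40 ± 0.25. The aged groups lay wholly below the young for 3 genes in ISC, *Srsf9*, *Sf3b4* and *Hnrnpa2b1* (4.41% of all genes did so), and wholly above for 0 (4.43%).

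In AE the lowest P values were those of *Hnrnpa1* (-0.71 ± 0.30) and *Sf3b3* (-0.61 ± 0.26), both with FDR = 0.833 by edgeR. The 2 genes were high in the second young AE library, which also held the most proliferation and stem cell markers, and without it their log2 fold changes were -0.32 and -0.21. Aged AE lay wholly below young AE for 3 genes, *Hnrnpa3*, *Sf3a3* and *Sf3b3* (6.98% of all genes did so), and wholly above for 0 (3.95%). None of the 156 other splicing genes tested was called in ISC or AE by edgeR, and 2 of them in ISC and 10 in AE had an unadjusted P under 0.05.

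**Figure D5:**
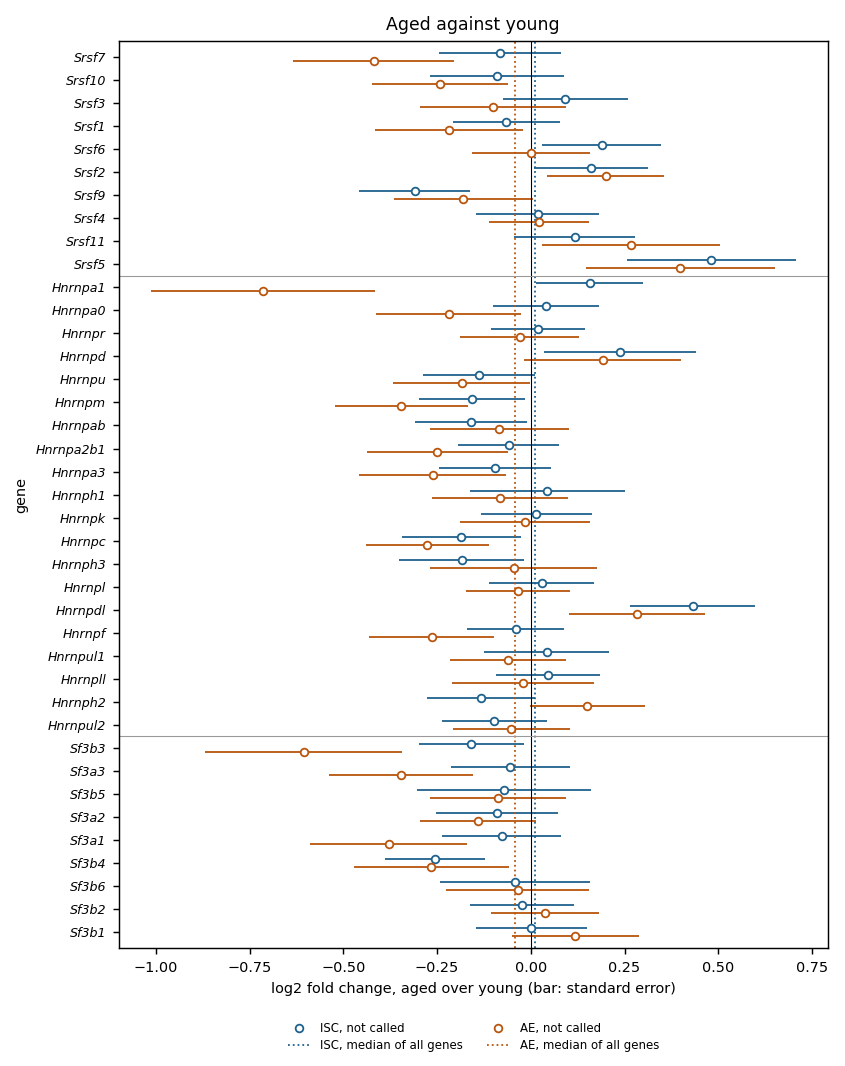
Log2 fold change of aged over young for 39 genes in ISC (blue) and AE (brown), with bars for the standard error (n = 3 libraries per group) and dotted lines at the median of all genes tested (0.01 in ISC, -0.04 in AE). All points are open, since no gene was called, and they spread from -0.71 (*Hnrnpa1* in AE) to 0.48 (*Srsf5* in ISC).

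The difference of AE against ISC between ages was tested over all 12 libraries. Of the 40 genes 0 were called lower or higher, where 0% of 17377 genes were called lower and 0.00575% higher, and DESeq2 also called 0 of them, against 0.340% of all genes. At an unadjusted P under 0.05 there was 1 gene, where 4.36% of all genes were. It was *Hnrnpa1*, with -0.88 ± 0.35 (FDR = 1.00 by edgeR), next to *Sf3b3* with -0.45 ± 0.31. Without the second young AE library the value for *Hnrnpa1* was -0.52.

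Features of structure were also described, and no decay transcript or promoter string below was common to all the genes. The 40 genes have a median of 7 annotated transcripts, against 5 in protein-coding genes with at least 10 counts. In the GENCODE annotation of GRCm38, 20 of the 40 (50%) have a transcript marked as a target of nonsense-mediated decay, against 26.9% of 14483 protein-coding genes with at least 10 counts. The families differ: 9 of 11 SR proteins do (81.8%), 10 of 20 hnRNPs and 1 of 9 SF3 subunits, *Sf3b1*. The counts were made over merged transcripts of a gene, so productive and decay transcripts are not separated, and no level of either is given.

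RefSeq promoter windows (GRCm38.p6), cut to the 250 bases before the start, were matched for 36 of the 40 genes. They held a median of 22.5 CG dinucleotides, against 15 in 12036 genes with at least 10 counts and 6 in all 27025 genes. On either strand, GGGCGG, the core of the GC box, was found in 75% of the 36, in 55.8% of the genes with counts and in 32.9% of all genes, CCAAT in 47.2%, 36.0% and 34.5%, and CCGGAAG, a letter string bound by ETS family factors, in 33.3%, 12.6% and 7.1%. TATAAA was in 11.1%, 7.3% and 13.0%, CACGTG in 5.6%, 8.1% and 6.0%, TCTCGCGA in 5.6%, 1.7% and 0.9%, and AAGATGGCG in 0, 1.1% and 0.6%. The 12 genes with CCGGAAG included *Srsf5* and *Srsf11*, which did not pass the test, as well as *Srsf7*, *Sf3a3* and *Sf3b3*, which fell.

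Promoter stretches of 5 genes are shown to set genes that fell beside genes that did not, each as the longest part of the window outside annotated exons, 5′ to 3′ on the strand of the gene and with the ETS, GC box and CCAAT strings on either strand in capitals. They are *Hnrnpa1* (chr15:103240147-103240396, + strand), *Srsf6* (chr2:162931258-162931507, + strand) and *Sf3b3* (chr8:110846813-110847023, - strand), which fell, and *Srsf5* (chr12:80945397-80945498, + strand) and *Sf3b1* (chr1:55027482-55027728, - strand), which did not pass, all in GRCm38.p6.
Hnrnpa1: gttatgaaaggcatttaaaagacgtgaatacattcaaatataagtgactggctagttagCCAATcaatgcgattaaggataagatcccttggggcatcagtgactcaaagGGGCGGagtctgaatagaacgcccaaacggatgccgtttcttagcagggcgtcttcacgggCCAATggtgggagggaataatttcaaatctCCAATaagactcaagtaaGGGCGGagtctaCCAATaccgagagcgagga
Srsf6: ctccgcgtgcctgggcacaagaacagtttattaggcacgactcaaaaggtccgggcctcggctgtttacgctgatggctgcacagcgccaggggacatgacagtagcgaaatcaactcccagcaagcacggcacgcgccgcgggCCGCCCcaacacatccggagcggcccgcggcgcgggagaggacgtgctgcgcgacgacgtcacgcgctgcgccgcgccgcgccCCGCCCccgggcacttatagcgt
Sf3b3: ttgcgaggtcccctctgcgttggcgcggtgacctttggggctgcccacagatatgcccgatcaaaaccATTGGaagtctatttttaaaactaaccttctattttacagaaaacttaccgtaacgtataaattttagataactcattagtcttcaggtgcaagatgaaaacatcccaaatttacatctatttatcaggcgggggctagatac
Srsf5: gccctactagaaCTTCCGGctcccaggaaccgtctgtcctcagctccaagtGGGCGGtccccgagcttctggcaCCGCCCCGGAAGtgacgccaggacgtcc
Sf3b1: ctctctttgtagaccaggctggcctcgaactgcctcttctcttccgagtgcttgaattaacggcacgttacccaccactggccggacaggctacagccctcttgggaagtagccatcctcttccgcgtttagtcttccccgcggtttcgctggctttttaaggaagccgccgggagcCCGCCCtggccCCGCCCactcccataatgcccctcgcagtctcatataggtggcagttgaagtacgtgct
Within these stretches, *Hnrnpa1* holds 4 CCAAT and 2 GGGCGG strings, *Srsf6* 2 GGGCGG, *Sf3b3* 1 CCAAT, *Sf3b1* 2 GGGCGG, and *Srsf5* 2 CCGGAAG and 2 GGGCGG, of which a pair overlaps by a base. The CCGGAAG of *Sf3b3* lies in its full window but outside the stretch shown. GGGCGG was found among both the genes that fell and those that did not pass, and a match of letters is a description and not a site of binding.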

How the data were processed

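Poly(A) RNA of sorted ISC and AE was sequenced as single-end reads of 50 bases in 12 libraries. The authors trimmed reads with Trim Galore 0.4.4, mapped them with HISAT2 2.1.0 to GRCm38 and counted uniquely mapped reads in SeqMonk, over exons of each gene's merged transcripts. The deposited values are raw counts of 34245 genes, and the annotation release and the strand setting are not given in the sources used here. A second deposited table, of the authors' differential genes, holds log2 values and the authors' test results and was not used.

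Columns were grouped by their own names. Genes whose counts summed to at least 10 in a comparison's libraries were tested with edgeR 4.0.16 (R 4.3.3, TMM factors, quasi-likelihood test, Benjamini-Hochberg FDR threshold of 0.05 over all genes), with limma 3.58.1 loaded by it and DESeq2 1.42.0 as an alternative. Standard errors were taken as the log2 fold change over the root of F. Other alternatives were RLE, upper-quartile and no scaling factors, no filter, filterByExpr, all 4 groups in one fit, a replicate block, the deepest library thinned, and leaving out each library. The scripts were first tested on simulated data with known changes, drawn from these means and library sizes. P-values measure the spread between libraries, and which mouse gave which library is not stated. Limits of 3 counts cover counting error only.

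Library codes carry a number that ISC and AE of an age share. Deviations from group means correlated over genes at 0.121 to 0.287 in the 6 pairs of the same code, against -0.214 to 0.058 in the 12 other pairs. The code was therefore used as the block in that alternative, while the main tests had no block and treated the libraries as unpaired.

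The genes and the lists of pathway genes and markers were chosen with earlier results of these data known. All genes of the rule are named. The effect of alternatives was computed for up to 3 called genes of lowest P per family in each comparison of AE with ISC, for the 2 of lowest P in each comparison by age, and, chosen after their values were seen, for the 6 genes not called at an age (*Srsf12* aside). Up to 2 called genes of lowest P per pathway list were named, and 1 such result is not reported here. GENCODE M21 gave exon lengths and transcript types, and 34 of 40 gene spans matched the deposited ones exactly.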

Additional observations from a re-analysis of the deposited data

How the results depend on the processing

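Counts of genes called lower in AE stayed between 31 and 38 of 40 in the young and between 34 and 39 in the aged, and no alternative called any of them higher, or called any by age. Over the same settings, 20.8% to 42.8% of all genes were called lower in the young, and 28.2% to 53.4% in the aged. In the aged all 34 calls held in each of 14 alternatives, and in the young 30 of 33 held in each of 15. *Hnrnph3* lost its call without young ISC replicate 1 or 2, *Hnrnpul1* without young ISC replicate 1 or young AE replicate 1, and *Sf3b6* without young ISC replicate 2 or 3 (FDR up to 0.0813). With the replicate block, 34 genes were lower at each age, where 25.9% of all genes were in the young and 34.9% in the aged. *Hnrnpll* was then called in the young (-0.53, FDR = 0.0191), and the block changed no other call of these genes. Over all genes the difference between ages gave 21 calls in place of 1.

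The median of the group moved by more than the spread between replicates in the following cases. In the young it was -1.18 with upper-quartile factors and -1.76 with no scaling factors, and -1.21 to -0.98 leaving out single libraries. In the aged it was -1.23 with DESeq2 and with RLE factors, -1.41 with upper-quartile factors, -2.10 with no scaling factors, -1.22 with no filter, -1.14 with all 4 groups in the fit, and -1.31 to -1.16 leaving out single libraries. With no scaling factors it was -0.22 for age in AE and -0.23 for the difference between ages, the latter from -0.21 to -0.0415 leaving out single libraries. With no scaling factors, 42.8% of all genes were called lower and 15.4% higher in the young, and 53.4% and 17.1% in the aged.

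Signs turned only for genes that were not called. *Srsf11* in the young was at -0.0747 with upper-quartile factors, -0.66 with no scaling factors and -0.24 to 0.17 leaving out single libraries, and in the aged at -0.67 and -0.0067 to 0.27. *Srsf5* was at -0.45 in the young and -0.69 in the aged with no scaling factors, and at -0.13 to 0.30 in the aged leaving out single libraries. *Sf3b1* in the aged was at 0.0046 with DESeq2 and with RLE factors and at -0.23 to 0.0031 leaving out single libraries. The cause of these turns was not tested. *Srsf12* is limited by depth, with at most 12 counts in any library.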
